A study of Sus scrofa with 20 samples.

Results

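Stearoyl-CoA desaturase (SCD), the fatty acid elongase ELOVL5 and the fatty acid desaturases FADS2 and FADS1 were followed across the backfat of 20 Italian Large White pigs. The 4 genes were taken by name and identifier, as the loci XLOC_010966 (SCD, ENSSSCG00000010554), XLOC_040993 (ELOVL5, ENSSSCG00000024149), XLOC_017300 (FADS2, ENSSSCG00000013072) and XLOC_018180 (FADS1, ENSSSCG00000024015). They are 4 of the 23483 loci in the deposited gene tables, and all 4 were among the 21587 loci that passed the filter on low counts. The animals were 10 females, aged 235 to 250 days (244.3 ± 5.64, SD), and 10 castrated males, aged 233 to 249 days (240.4 ± 4.53, SD). All weighed 150 to 160 kg, shared 1 housing and 1 diet, and received no stated treatment. Tissue was taken in a commercial slaughterhouse, and RNA selected with oligo-dT was sequenced, 1 library per animal. Libraries are called female 1 to 10 and castrated male 1 to 10; the numbers only follow the order of deposition and pair no animals.

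These enzymes decide how unsaturated and how long the fatty acids of a cell are. SCD, which sits in the endoplasmic reticulum, turns stearic and palmitic acid into oleic and palmitoleic acid, and it is abundant in fat tissue, where oleic acid is stored as triglyceride. FADS2 opens the route from the dietary linoleic and alpha-linolenic acids to the long polyunsaturated fatty acids, ELOVL5 lengthens the product of FADS2, and FADS1 then desaturates the lengthened chain to arachidonic or eicosapentaenoic acid. SCD is a known target of the lipogenic regulators SREBP-1 and ChREBP, and FADS1 and FADS2 are neighbours on their chromosome.

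The libraries held 25754778 to 51248122 counts, and the median library 36922247. At 2 loci that separated the sexes, the 2 libraries numbered 10 went against their labels. XLOC_042132 had 547 to 1233 CPM (counts scaled to library size) in females 1 to 9, against 0 to 1.87 CPM in castrated males 1 to 9, but 0.409 CPM in the library labelled female 10 and 989 CPM in that labelled castrated male 10. The second locus, XLOC_042813, showed the mirror image, with 314 CPM in the library labelled female 10 and 0 CPM in the library labelled castrated male 10. The sex differences of the 4 genes and of the gene lists are therefore also given without these 2 libraries; group means include them. Of 15 adipocyte markers 9 had a locus, and their summed level was 4299 to 8009 CPM in females against 3615 to 9408 CPM in castrated males; ADIPOQ, LEP, FABP4, LPL, CIDEA and AQP7 were matched to no locus and were not analysed here. Of 9 skeletal muscle markers only 2, ACTA1 and TNNC2, had a locus, and these summed to at most 4.17 CPM in any library. In bulk tissue, fewer cells of a type and less RNA per cell cannot be told apart. The p-values below rest on the spread between these animals' libraries.

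Per unit of transcript length the order of the 4 genes was SCD, ELOVL5, FADS2, FADS1. SCD had 399 FPKM in the lowest female, a median of 2737 FPKM and 4686 FPKM in the highest female, against 41.5, 2498 and 4162 FPKM in castrated males. FPKM counts sequenced fragments per kilobase of a transcript, relative to library size. ELOVL5 had 108, 175 and 298 FPKM in females, lowest, median and highest, against 93.6, 138 and 243 FPKM in castrated males. FADS2 had 20.0, 22.1 and 30.5 FPKM in females, against 12.4, 21.1 and 40.5 FPKM in castrated males. FADS1 had 5.22, 8.06 and 13.4 FPKM in females, against 4.62, 6.73 and 13.2 FPKM in castrated males. By FPKM, SCD was thus the most abundant of the 4 transcripts and FADS1 the least abundant, given the transcript lengths that FPKM assumed.

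Each step of that order was larger than its spread over animals. On the log2(FPKM + 0.1) scale SCD exceeded ELOVL5 by 3.61 ± 1.38 (SD, n = 20), in 19 of 20 libraries, and castrated male 1 was the exception with a difference of -1.36. Leaving that animal out, the difference was 3.87 ± 0.751 (SD, n = 19). ELOVL5 exceeded FADS2 by 2.86 ± 0.713 and FADS2 exceeded FADS1 by 1.499 ± 0.279 on the same scale, both in 20 of 20 libraries. A two-sided sign permutation test with 100000 draws gave p = 1e-05 for each of the 3 steps, the smallest value those draws can give. The order tested was itself taken from mean FPKM in these libraries. This p covers the spread between animals only, and not the lengths that FPKM assumed. As a ratio of FPKM, FADS2 over FADS1 ran from 2.13 in castrated male 5 to 3.83 in the library labelled female 10, a 1.80-fold range, where SCD over ELOVL5 ranged 79.0-fold and ELOVL5 over FADS2 6.42-fold.

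The counts, which are not scaled for length, put FADS1 above FADS2. The ratio of FADS2 to FADS1 was 0.389 ± 0.0728 in CPM but 2.91 ± 0.579 in FPKM (SD, n = 20). One FPKM corresponded to a median of 5.27 CPM at the FADS1 locus and 0.731 CPM at the FADS2 locus, with 6.06 CPM at SCD and 1.21 CPM at ELOVL5. Whether the FADS1 locus also counts reads of other transcripts was not tested. The order of FADS2 above FADS1 rests on the lengths the authors' FPKM assumed for both genes. Comparisons of 1 gene between animals in CPM do not depend on those lengths. Those in FPKM can, because the CPM per FPKM of a gene differed between libraries. At FADS2 it ran from 0.539 in the library labelled castrated male 10 to 0.887 in castrated male 1.

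SCD had the widest range. Its level was 2441 CPM in the lowest female (female 9), a median of 16564 CPM and 28330 CPM in the highest female (female 4), against 253 CPM in castrated male 1, a median of 15306 CPM and 25423 CPM in castrated male 3. The groups overlapped over almost their whole range, and castrated male 1 lay far below every other animal. After castrated male 1 and female 9, the next lowest libraries were female 2 with 6740 CPM and castrated male 9 with 7789 CPM. This 1 gene took 0.260 to 2.82% of all counts in females and 0.0288 to 2.49% in castrated males. The highest library was 111.9-fold above the lowest, and 11.6-fold without castrated male 1.

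Castrated male 1 also stood apart at other genes. Its 8 measured genes of fatty acid synthesis summed to 356 CPM, the lowest of the 20 libraries, where the medians were 3779 CPM in females against 4273 CPM in castrated males. Its 9 adipocyte markers summed to 4696 CPM, the third lowest value, and its 9 macrophage markers to 1354 CPM, the highest, where females had 204 to 606 CPM. Its endothelial markers, at 2411 CPM, were the highest of all libraries and its fibroblast markers, at 6827 CPM, the lowest. Single markers went both ways. Of the fibroblast markers, COL1A2, COL3A1 and DCN were the lowest of all libraries and LUM ranked 2 from the lowest. FBLN1, at 255 CPM, was the highest, and PDGFRA ranked 18. Of the adipocyte markers, PPARG, CIDEC and CA3 were the lowest, but PCK1 ranked 18 from the lowest, PLIN4 13 and PNPLA2 10. The share of counts on 10 mitochondrial loci in castrated male 1 was 8.49%, also the lowest, in a set that reached 26.3%. The part of these in its low SCD was not tested.

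ELOVL5 varied less. It had 132 CPM in female 8, a median of 213 CPM and 362 CPM in female 6, against 108 CPM in the library labelled castrated male 10, a median of 170 CPM and 296 CPM in castrated male 3. Females separated into 5 libraries between 263 and 362 CPM, the library labelled female 10 included, and 5 between 132 and 162 CPM, with none between. Castrated males lay in that gap at 169, 170, 219, 257 and 257 CPM. The whole range was 3.35-fold.

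FADS2, which acts at the start of the polyunsaturated route, had 12.1 CPM in female 7, a median of 16.2 CPM and 22.5 CPM in female 3, against 8.21 CPM in castrated male 5, a median of 15.9 CPM and 23.0 CPM in the library labelled castrated male 10. FADS1 had 26.4 CPM in female 7, a median of 42.6 CPM and 70.5 CPM in female 3, against 25.1 CPM in castrated male 6, a median of 35.4 CPM and 71.6 CPM in the library labelled castrated male 10. The same 4 libraries were the highest for both genes: females 1 and 3, castrated male 9 and the library labelled castrated male 10. Female 7 was the lowest female for both. The smallest raw count behind any of these values was 307 for FADS2, in castrated male 5, and 822 for FADS1, in the library labelled female 10.

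**Figure D1:**
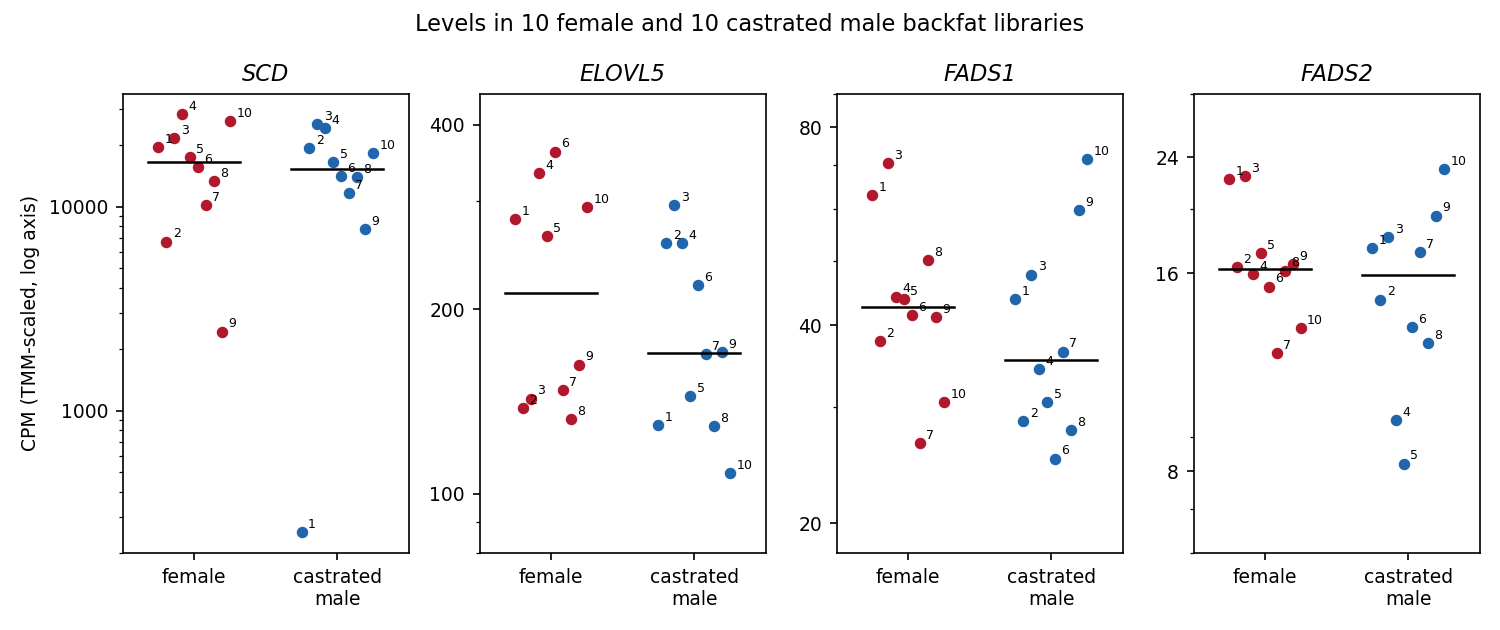
Level of each of the 4 genes in every library, in TMM-scaled CPM on log axes, females left and castrated males right; points carry the library number and bars mark group medians. Castrated male 1 lies at 253 CPM for SCD, below all other libraries, and the sexes overlap for all 4 genes.

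To set the spread of these genes against other loci, sex means were removed and the SD of log2 CPM was taken over the 20 libraries. SCD had an SD of 1.58, ELOVL5 0.54, FADS1 0.47 and FADS2 0.38, where the median of 8769 loci with a mean of at least 10 CPM was 0.26. SCD ranked 25 from the highest of those loci, and ELOVL5, FADS1 and FADS2 exceeded 90.5, 85.6 and 76.6% of them. With castrated male 1 left out, the SD of SCD was 0.86 and its rank 167. SCD was therefore among the most variable of the well expressed loci with or without that animal.

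None of the 4 genes differed between the sexes beyond the spread between animals. SCD averaged 16176 ± 8280 CPM in females against 15174 ± 7524 CPM in castrated males (SD, n = 10 each). ELOVL5 averaged 226 ± 89.8 CPM in females against 188 ± 64.9 CPM in castrated males. FADS1 averaged 44.9 ± 13.5 CPM in females against 40.6 ± 15.3 CPM in castrated males, and FADS2 averaged 16.7 ± 3.35 CPM in females against 15.4 ± 4.60 CPM in castrated males. The fitted log2 difference, female minus castrated male, was 0.09 for SCD (SE 0.461, 95% interval -0.86 to 1.05) and 0.26 for ELOVL5 (SE 0.224, interval -0.20 to 0.73). It was 0.15 for FADS1 (SE 0.196, interval -0.26 to 0.56) and 0.13 for FADS2 (SE 0.162, interval -0.21 to 0.46). The adjusted p was 0.99996 for each of the 4 genes in edgeR's quasi-likelihood test with Benjamini-Hochberg adjustment over 21587 loci.

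The background of that comparison was low as well. Among all 21587 loci edgeR called 0, or 0%, at an adjusted p under 0.05, and 935 loci (4.33%) passed 0.05 before adjustment; DESeq2 called 5. Without the 2 libraries numbered 10 edgeR called 18 loci, none of them these genes. The log2 differences were then 0.03 for SCD, 0.16 for ELOVL5, 0.33 for FADS1 and 0.25 for FADS2. Those of FADS1 and FADS2 were thus larger once the 2 libraries were left out, at unadjusted p = 0.086 and 0.137 and an adjusted p of 0.9998 in edgeR. On deposited FPKM the difference of SCD was 0.36 on the log2(FPKM + 0.1) scale (SE 0.648), larger than the edgeR estimate and still below its error. That fit averages log2 values while edgeR fits mean counts, so the 2 estimates are unlike measures. Their gap is not one between FPKM and counts. The interval of SCD reached about 1 log2 unit on its upper side, and those of the other 3 genes stayed below that.

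Age spanned only 233 to 250 days and gave no called slope for any of the 4 genes. With sex in the model, the log2 slope per 10 days was 0.37 for SCD (SE 0.488, 95% interval -0.64 to 1.39) and 0.16 for ELOVL5 (SE 0.237, interval -0.33 to 0.65). It was -0.22 for FADS1 (SE 0.211, interval -0.66 to 0.22) and -0.34 for FADS2 (SE 0.164, interval -0.68 to 0.0055). FADS2 came closest to the threshold, with an unadjusted p of 0.0535 and an adjusted p of 0.867 in edgeR. Among the 21587 loci edgeR called 0, or 0%, for age, while 1189 (5.51%) passed 0.05 before adjustment. DESeq2 called 6. These slopes include the 2 libraries numbered 10, which went against their sex labels and whose ages come from the same labels. Without them edgeR again called 0 loci for age. Younger animals were more often castrated males, so age and sex are not independent in these pigs.

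**Figure D2:**
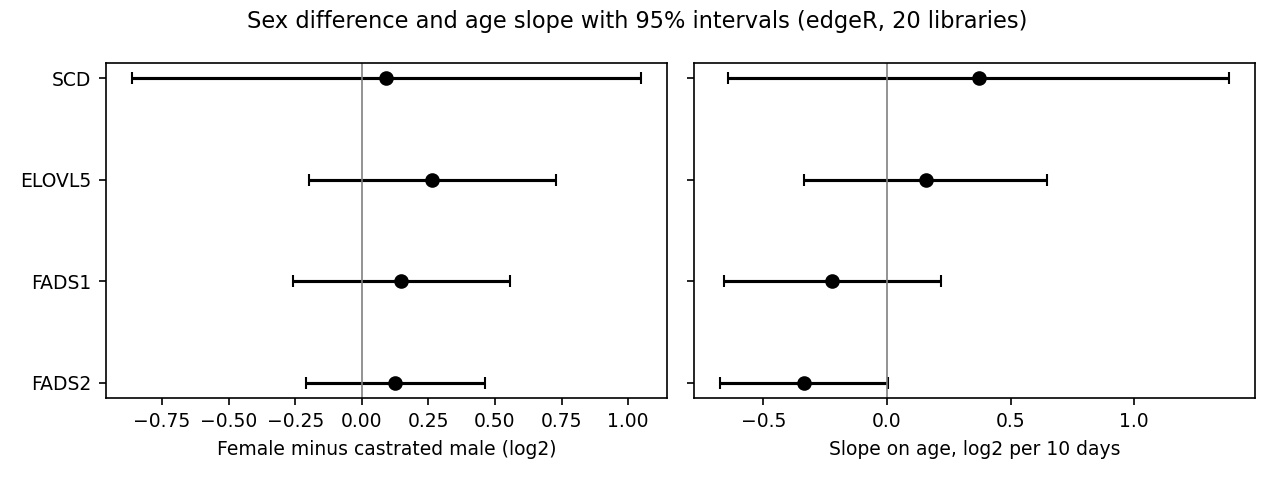
Fitted log2 difference, female minus castrated male (left), and log2 slope per 10 days of age with sex in the model (right), for the 4 genes; points are edgeR estimates over 20 libraries and bars are 95% intervals. Every interval includes 0, and the upper end of the FADS2 age slope, at 0.0055, lies nearest to it.

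Across animals the 4 genes formed 1 strong pair. After removal of sex means, log2 CPM of FADS1 and FADS2 correlated at Pearson r = 0.80 (permutation p = 2e-05, 0.00075 after adjustment over 50 relations) and Spearman's coefficient 0.82 (permutation p = 1e-05; n = 20). Left without female 3 and the library labelled castrated male 10, the 2 libraries farthest from the median of FADS1, r was 0.72 (adjusted p = 0.0212, permutation). Within the 10 females r was 0.96 (adjusted p = 0.018, permutation), and within the 10 castrated males it was 0.74 (adjusted p = 0.262, permutation). Spearman's coefficient was 0.73 within females (adjusted p = 0.217, permutation) and 0.81 within castrated males (adjusted p = 0.378, permutation), neither called. Leaving out each library in turn gave r of 0.75 to 0.85. The relation was as high on deposited FPKM, with r = 0.79.

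SCD and ELOVL5 went together more loosely. Their r was 0.44 (permutation p = 0.0339, adjusted p = 0.154) and Spearman's coefficient 0.51 (permutation p = 0.0219). The r did not pass the threshold after adjustment. Without castrated male 1 and female 9, the 2 libraries farthest on SCD, r was 0.56 (adjusted p = 0.121, permutation). It was 0.54 within females and 0.42 within castrated males.

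No relation was detected between the SCD and ELOVL5 side and the FADS side. The r of SCD was -0.03 with FADS1 and -0.15 with FADS2, and that of ELOVL5 was -0.17 with FADS1 and -0.13 with FADS2 (adjusted permutation p 0.926, 0.697, 0.697 and 0.730). Spearman's coefficient was 0.03, -0.13, -0.11 and -0.21 for the same 4 pairs. ELOVL5 and FADS2, whose enzymes act on the same chain in successive steps, thus showed no shared movement across these 20 animals at a size this sample could detect.

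**Figure D3:**
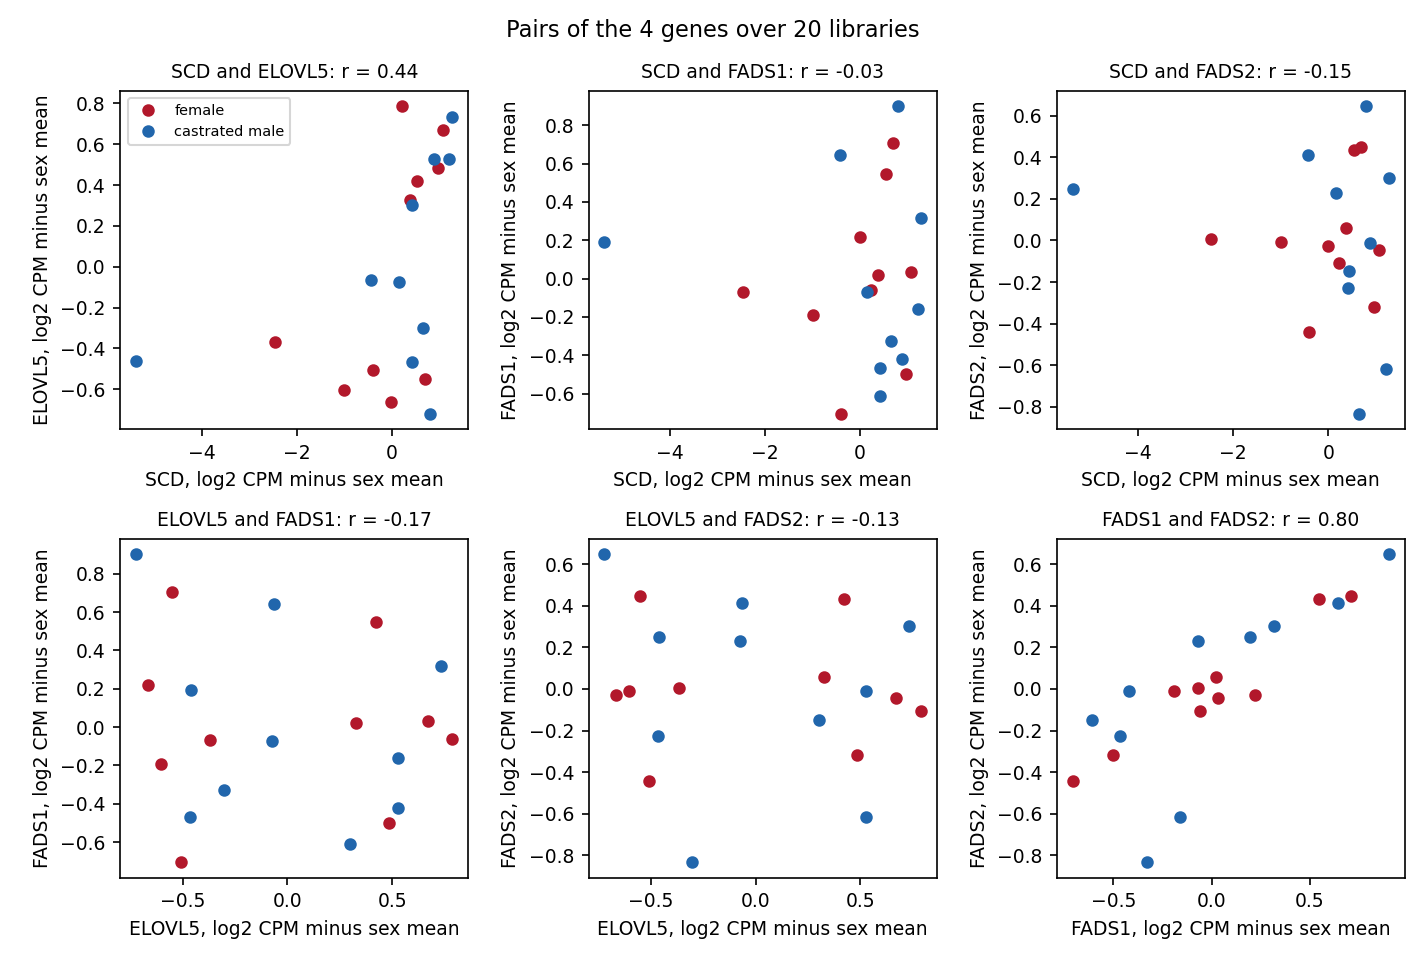
Each pair of the 4 genes across 20 libraries, as log2 CPM minus the mean of the animal's sex, with females in red and castrated males in blue. Only FADS1 against FADS2 forms a narrow rising band (r = 0.80); in the 3 panels with SCD on the x axis, castrated male 1 lies far to the left.

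SCD and ELOVL5 varied with the genes of fatty acid synthesis. Of 8 measured genes on that list, all 8 had a positive r with SCD, with a median of 0.82, where the median over 8768 other loci was -0.06. All 8 were also positive with ELOVL5, with a median of 0.59 beside -0.01 over all loci. ME1, the malic enzyme that supplies NADPH, had r = 0.92 with SCD, at a locus that carries 2 Ensembl identifiers, and FASN, the fatty acid synthase itself, had 0.84. ACLY, which makes cytosolic acetyl-CoA, had 0.81 and ACACA, the acetyl-CoA carboxylase, 0.77 with SCD. With ELOVL5 the same genes gave 0.49 for ME1, 0.66 for FASN, 0.61 for ACLY and 0.70 for ACACA. Leaving castrated male 1 out, the list's median with SCD was 0.71, again with 8 of 8 above 0.

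Tested as single relations among the 50, FASN with SCD had permutation p = 3e-05 (adjusted 0.00075; Spearman 0.61, p = 0.00523) and FASN with ELOVL5 p = 0.00104 (adjusted 0.0104; Spearman 0.72, p = 0.00052). Without the 2 libraries farthest on FASN, castrated male 1 and female 9, FASN and SCD gave r = 0.56 and no longer passed the adjustment (adjusted p = 0.121, permutation). FASN and ELOVL5 without the same 2 libraries gave r = 0.73 and did pass (adjusted p = 0.0212, permutation). Within females r was 0.83 for FASN with SCD and 0.72 for FASN with ELOVL5, and within castrated males 0.85 and 0.64, none with an adjusted p under 0.05 at 10 animals. The pass of FASN with SCD therefore rested on those 2 animals, and that of FASN with ELOVL5 did not.

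FADS1 and FADS2 did not follow fatty acid synthesis. The same 8 genes had a median r of -0.11 with FADS1, with 1 of 8 above 0, and -0.12 with FADS2, with 0 of 8 above 0, where 45.8 and 46.5% of all loci were above 0. With castrated male 1 left out, 4 of 8 were above 0 with FADS1 (median -0.07) and 3 of 8 with FADS2 (median -0.03). FASN had r = -0.18 with FADS1 and -0.14 with FADS2. The median over all loci was -0.03 for both.

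Of the proteins that work beside these enzymes, the 3 measured electron donors were all positive with SCD and ELOVL5 and 0 of 3 with FADS1 or FADS2; over all loci 44.4% were positive with SCD and 48.7% with ELOVL5. Their median r with SCD was 0.48, and 0.26 without castrated male 1. The elongation cycle was mixed, with 2 of 3 genes positive with ELOVL5 and 1 of 3 with SCD, or 3 of 3 with SCD without castrated male 1 (median 0.07), and so was activation and esterification, with 4 of 8 positive with SCD. HSD17B12, the ketoacyl-CoA reductase of the elongation cycle, had r = 0.83 with SCD and 0.51 with ELOVL5, against -0.24 with FADS1 and -0.45 with FADS2. CYB5A, the cytochrome that passes electrons to the desaturases, had 0.88 with SCD, 0.55 with ELOVL5, -0.10 with FADS1 and -0.32 with FADS2. ACSL1, which activates long-chain fatty acids to their CoA esters, had 0.79 with SCD and 0.49 with ELOVL5, but -0.09 with FADS1 and -0.15 with FADS2. Of the peroxisomal genes that shorten very long chains, 6 of 6 were positive with ELOVL5 (median r 0.45), while 1 of 6 was positive with FADS1 (0 of 6 without castrated male 1) and 1 of 6 with FADS2. These values are descriptions over the same 20 libraries and carry no test.

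Among regulators, MLXIPL (ChREBP), the glucose-sensing activator of lipogenic genes, whose locus carries 3 Ensembl identifiers, had r = 0.67 with SCD (permutation p = 0.00078, adjusted 0.00975; Spearman 0.49, p = 0.0282). Without castrated male 1 alone r was 0.44, and without castrated males 1 and 7 it was 0.58 (adjusted p = 0.121, permutation). Within females r was 0.56, and within castrated males 0.74. NR1H3, the oxysterol receptor LXR alpha, went the other way, with r = -0.77 with SCD (permutation p = 0.00021, adjusted 0.0035; Spearman -0.61, p = 0.00528). Without castrated male 1 and female 9 that value was -0.41 (adjusted p = 0.371, permutation), and it was -0.69 within females and -0.81 within castrated males. Both relations with SCD thus lost their call when the 2 libraries at the edge of the regulator were left out.

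The other regulators named here gave no called relation with any of the 4 genes. SREBF2, the activator of sterol synthesis, had r = 0.45 with FADS1 (adjusted p = 0.189, permutation) and 0.37 with FADS2 (adjusted p = 0.284, permutation), but -0.25 with SCD, or 0.04 without castrated male 1. PPARG, the adipocyte nuclear receptor, had r = 0.53 with SCD (adjusted p = 0.138, permutation), and -0.04 without castrated male 1. INSIG1, which retains SREBP proteins in the endoplasmic reticulum, had 0.31 with SCD and -0.38 with FADS2, neither called, and 0.64 with SCD without castrated male 1. SREBF1, which encodes SREBP-1, was matched to no locus and was not analysed here.

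Adipocyte markers had negative r with the FADS pair, in values that carry no test. All 8 adipocyte markers above 10 CPM were negative with FADS1, with a median r of -0.46, and with FADS2, with a median of -0.40. Over all loci 45.8% had a positive r with FADS1. PLIN1, the lipid droplet coat protein, whose locus carries 2 Ensembl identifiers, had r = -0.64 with FADS1 and -0.53 with FADS2, against 0.62 with ELOVL5 and 0.30 with SCD (0.05 without castrated male 1). LIPE, the hormone-sensitive lipase, had -0.48 with FADS1 and -0.39 with FADS2, against 0.69 with ELOVL5. Of the adipocyte markers 7 of 8 were positive with ELOVL5 (median 0.41) and 5 of 8 with SCD (median 0.26). With SCD these were 4 of 8 and a median of 0.01 without castrated male 1, so the positive median rested on that animal.

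Macrophage and endothelial markers had the opposite sign with the FADS pair. All 9 macrophage markers were positive with FADS1 (median r 0.15; 6 of 9 and 0.11 without castrated male 1) and with FADS2 (median 0.29), and all 4 endothelial markers were positive with both (median 0.32 for each). The summed macrophage level, tested among the 50 relations, gave no called relation. Its r was 0.12 with FADS1 (adjusted p = 0.738, permutation) and 0.29 with FADS2 (adjusted p = 0.46, permutation). With SCD it was -0.52 (adjusted p = 0.138, permutation). Fibroblast markers were divided, with 3 of 6 positive with each gene, as were smooth muscle markers, with 3 of 6 positive with FADS1 and 4 of 6 with FADS2, and T and NK cell markers, with 2 of 3 positive with each. The receptor KDR had 0.42 with FADS1 and 0.48 with FADS2. With SCD, 0 of 9 macrophage markers were positive, with a median of -0.46. That median was -0.04 without castrated male 1, so the negative values with SCD rested on 1 animal.

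Of the 4 libraries with the most FADS1, 3 were, with castrated male 1, also the lowest in the adipocyte sum. These were female 3, castrated male 9 and the library labelled castrated male 10. That sum was 4299 CPM in female 3, 4954 CPM in castrated male 9 and 3615 CPM in the library labelled castrated male 10. The same 3 libraries had the highest mitochondrial shares of the set, at 21.7, 21.1 and 26.3% of counts. Female 1, the other of the 4, with 63.1 CPM of FADS1, had 6982 CPM and 17.2%. Castrated male 8 had the next highest mitochondrial share, 19.2%, but its FADS1 level, 27.7 CPM, ranked 3 from the lowest. Across all 20 libraries the mitochondrial share had r = 0.56 with FADS1 (permutation p = 0.00985, adjusted 0.0821; Spearman 0.48, p = 0.0329) and 0.46 with FADS2 (adjusted p = 0.182, permutation; Spearman 0.47, p = 0.0383). Without castrated male 1 the values were 0.69 and 0.60. The total count had r between 0.08 and 0.18 with the 4 genes, none called, and the part of cell makeup and mitochondrial share in the FADS levels was not tested.

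**Figure D4:**
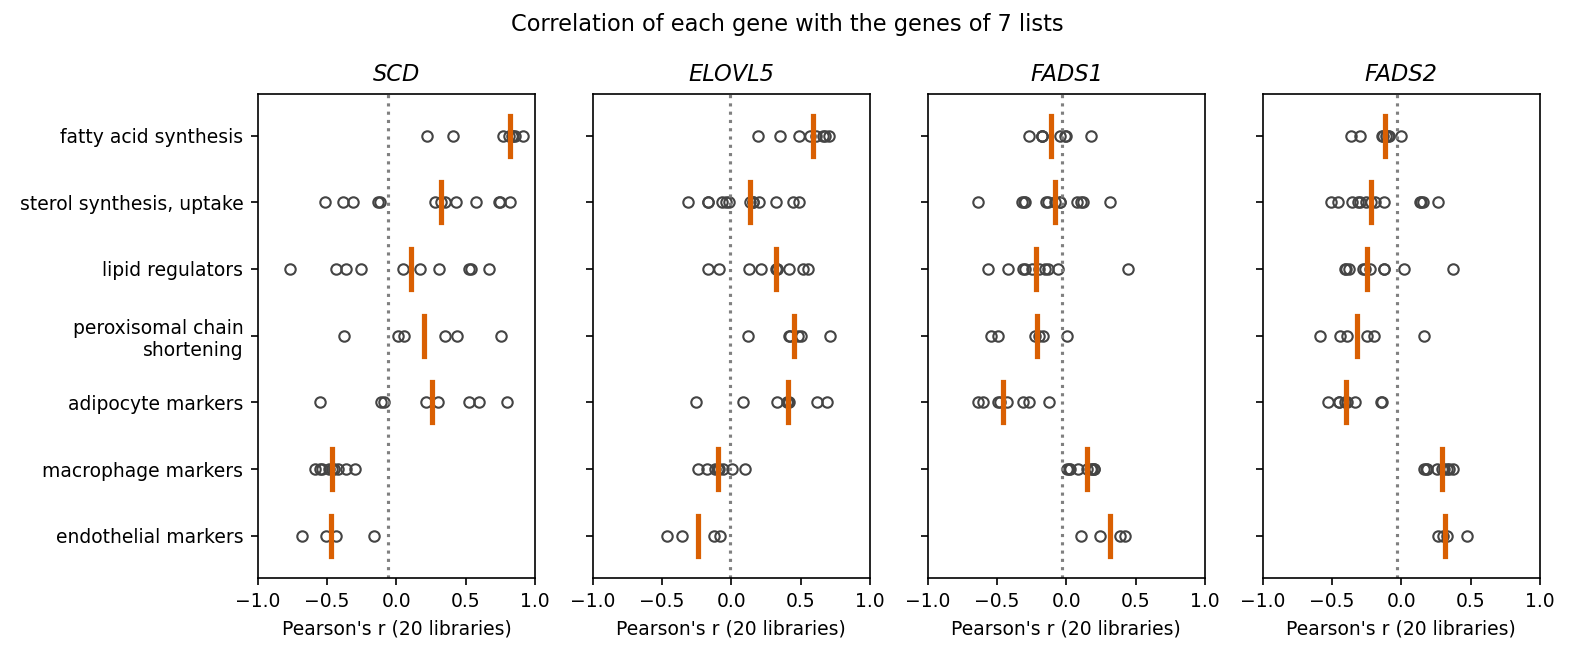
Pearson's r of each of the 4 genes with every measured gene of 7 lists (open circles), over 20 libraries with sex means removed; orange bars are list medians and the dotted line is the median over 8768 other loci. The fatty acid synthesis genes lie to the right for SCD and ELOVL5 (medians 0.82 and 0.59) and near the dotted line for FADS1 and FADS2, and the adipocyte markers lie to the left for FADS1 and FADS2.

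FADS3, the third gene of the desaturase cluster and of uncertain substrate in most species, was nearer to the FADS pair than to SCD. In the RefSeq annotation of Sscrofa11.1 the coding genes on chromosome 2 run in the order RAB3IL1, FADS3, FADS2, FADS1, FEN1 and TMEM258. FADS3 averaged 54.9 ± 13.3 CPM in females against 51.3 ± 10.25 CPM in castrated males (SD, n = 10 each), at a locus that also carries the identifier of RAB3IL1, so its reads cannot be split between these genes. It had r = 0.57 with FADS2 and 0.50 with FADS1, which ranked 144 and 274 among 8768 loci, against -0.27 with ELOVL5 and -0.52 with SCD. Without castrated male 1 these were 0.55, 0.50, -0.21 and -0.44. The strand setting of the authors' counting is not given in the sources used here, so reads of neighbouring or overlapping transcripts of the cluster may be shared.

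The closest patterns were sought among named loci with a mean of at least 10 CPM, leaving out loci that carry several gene symbols. By the highest r, the pattern of FADS1 was closest to that of SERTAD4 (r = 0.84), FADS2 (0.80), FLI1 (0.78), ELK3 (0.77) and TRMT6 (0.76). FLI1 and ELK3 are ETS transcription factors, and FLI1 is known from endothelial and blood cells. That of FADS2 was closest to FADS1 (0.80), SEMA6D (0.75), NOL4L (0.74), RAP2C (0.73) and ATP8B2 (0.73). Of all 8768 loci, FADS1 was the one with the highest r with FADS2, and FADS2 ranked 2 for FADS1. The chromosomal neighbours were thus each other's close match among all these loci.

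The pattern of SCD was closest to ZRSR2 (0.94), ECHDC2 (0.93), PRDX3 (0.93), ADHFE1 (0.92) and VDAC1 (0.91). PRDX3 and VDAC1 encode mitochondrial proteins, a peroxidase and an outer membrane channel. These values include castrated male 1. Without that animal they were 0.82, 0.75, 0.78, 0.77 and 0.82. The closest named loci were then AACS (0.85), ACLY (0.84), MCCC1 (0.83), PDHB (0.83) and GSS (0.83). ME1, whose locus carries 2 Ensembl identifiers, was left out as a locus of several symbols. Its r with SCD was 0.92 over all libraries, which ranked 5 among all loci, and 0.88 without castrated male 1, above AACS. AACS, which activates acetoacetate for lipid synthesis, ACLY and PDHB, a subunit of pyruvate dehydrogenase, all act in the supply of acetyl-CoA units.

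The pattern of ELOVL5 was closest to ADIPOR2 (0.84), TMEM120B (0.82), GPI (0.82), CTIF (0.82) and PFKM (0.80). ADIPOR2 is a receptor of adiponectin, and GPI and PFKM are enzymes of glycolysis. All 5 values stayed at 0.81 or above without castrated male 1. ELOVL5 and SCD shared no name among their 5 closest loci.

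The pathway around the 4 genes was as even between the sexes as the genes themselves. In edgeR 0 of the tested genes were called on any list: 0 of 4 other desaturases and elongases, 0 of 3 genes of the elongation cycle, 0 of 3 electron donors, 0 of 12 lipid regulators, 0 of 8 genes of fatty acid synthesis, 0 of 14 of sterol synthesis and uptake, 0 of 8 of activation and esterification, 0 of 6 of peroxisomal chain shortening and 0 of 8 of arachidonate use. The same held for age. The lists' median log2 differences between the sexes ran close to the median of all loci, 0.00: 0.01 for other desaturases and elongases, 0.00 for the elongation cycle, -0.04 for regulators, 0.03 for fatty acid synthesis and 0.05 for sterol synthesis. The list farthest from 0 among these pathways was arachidonate use, with a median of -0.11 and 1 of 8 genes above 0. Without the 2 libraries numbered 10, edgeR again called 0 genes on each of these lists, and the medians were 0.03 for other desaturases and elongases, -0.01 for the elongation cycle, -0.06 for regulators, -0.02 for fatty acid synthesis, 0.06 for sterol synthesis and -0.11 for arachidonate use.

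Among the other desaturases and elongases, DEGS1, which desaturates dihydroceramide, averaged 67.1 ± 11.4 CPM in females against 71.6 ± 8.25 CPM in castrated males. SCD5, a second stearoyl-CoA desaturase, averaged 6.79 ± 1.62 CPM in females against 7.16 ± 1.39 CPM in castrated males, and ELOVL2, an elongase of longer polyunsaturated chains, 3.35 ± 1.39 CPM in females against 2.97 ± 1.40 CPM in castrated males. All 4 loci of this list, FADS3 included, had negative age slopes, with a median of -0.23 per 10 days and an adjusted p of at least 0.859 in edgeR. FADS1 and FADS2 also had negative slopes, while all 8 genes of fatty acid synthesis, SCD and ELOVL5 had positive ones. The median slope of the 8 was 0.37, where the median over all loci was 0.00, their lowest adjusted p was 0.877, and 50.2% of all loci had a positive slope. Cell type markers had slopes of both signs, none called: 8 of 9 adipocyte markers were positive (median 0.16), and 0 of 9 macrophage markers (median -0.47) and 0 of 7 T and NK cell markers (median -0.27). Their part in the slopes of the 4 genes was not tested. FASN averaged 2210 ± 1404 CPM in females against 2099 ± 1475 CPM in castrated males, and ME1 875 ± 505 CPM in females against 733 ± 331 CPM in castrated males.

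Of the genes that use arachidonic acid, the end product of FADS1, PTGS2, the inducible cyclooxygenase, averaged 36.0 ± 16.01 CPM in females against 44.1 ± 29.1 CPM in castrated males. ALOX5AP, the activator of the leukotriene-forming lipoxygenase, averaged 20.2 ± 3.10 CPM in females against 25.1 ± 5.79 CPM in castrated males, a log2 difference of -0.32 (SE 0.122, adjusted p = 0.99996, edgeR) that was -0.33 without the 2 libraries numbered 10. PTGS1 averaged 31.3 ± 15.0 CPM in females against 32.2 ± 15.2 CPM in castrated males. The macrophage markers, which include cells known to express ALOX5AP, had a median log2 difference of -0.63 with 0 of 9 above 0 and 0 of 9 called (-0.60 without the 2 libraries numbered 10), and their part in the values of ALOX5AP was not tested.

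Isoform FPKM showed 1 dominant transcript for SCD, ELOVL5 and FADS2, and several for FADS1. TCONS_00028365 held 97.0 to 98.6% of the SCD locus in every library, ELOVL5 had a single isoform, and TCONS_00044308 held 84.9 to 92.7% of FADS2. At FADS1, TCONS_00047926 had a median share of 70.5%, TCONS_00047927 14.1% and TCONS_00047930 12.9%. In castrated male 1 the main SCD isoform had 40.5 FPKM, against a median of 2568 FPKM over the 20 libraries.

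Female 7 and the library labelled castrated male 10 had estimated FADS1 isoform shares unlike the rest. In female 7 the whole locus had 5.25 FPKM, and whether these estimates reflect the transcripts present was not tested. In female 7, TCONS_00047926 held 7.54% of the FADS1 locus, where the next lowest female had 67.9%, and TCONS_00047924, an isoform with no nearest reference transcript, held 77.9%. The next highest share of TCONS_00047924 was 0.0295% in females and 6.71% in castrated males, in castrated male 3. In the library labelled castrated male 10, which had the highest FADS1 level by CPM, TCONS_00047930 held 35.9%, where the next castrated male had 15.8%. Female 7 was at the same time the female with the lowest FADS1 and FADS2 levels by CPM.

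No isoform share differed between the sexes beyond the spread between animals. On arcsine square root shares, limma called 0 of 18378 isoforms (0%), and 349 had an unadjusted p under 0.05. The difference, female minus castrated male, was 0.0079 for FADS2 TCONS_00044308, -0.038 for FADS1 TCONS_00047926, -0.020 for TCONS_00047927 and -0.025 for TCONS_00047930, each with an adjusted p of 0.99997 in limma. TCONS_00047926 averaged 65.8 ± 20.7% in females and 69.0 ± 7.38% in castrated males (SD, n = 10 each). Without female 7 its difference was 0.036, so the sign rested on that library.

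**Figure D5:**
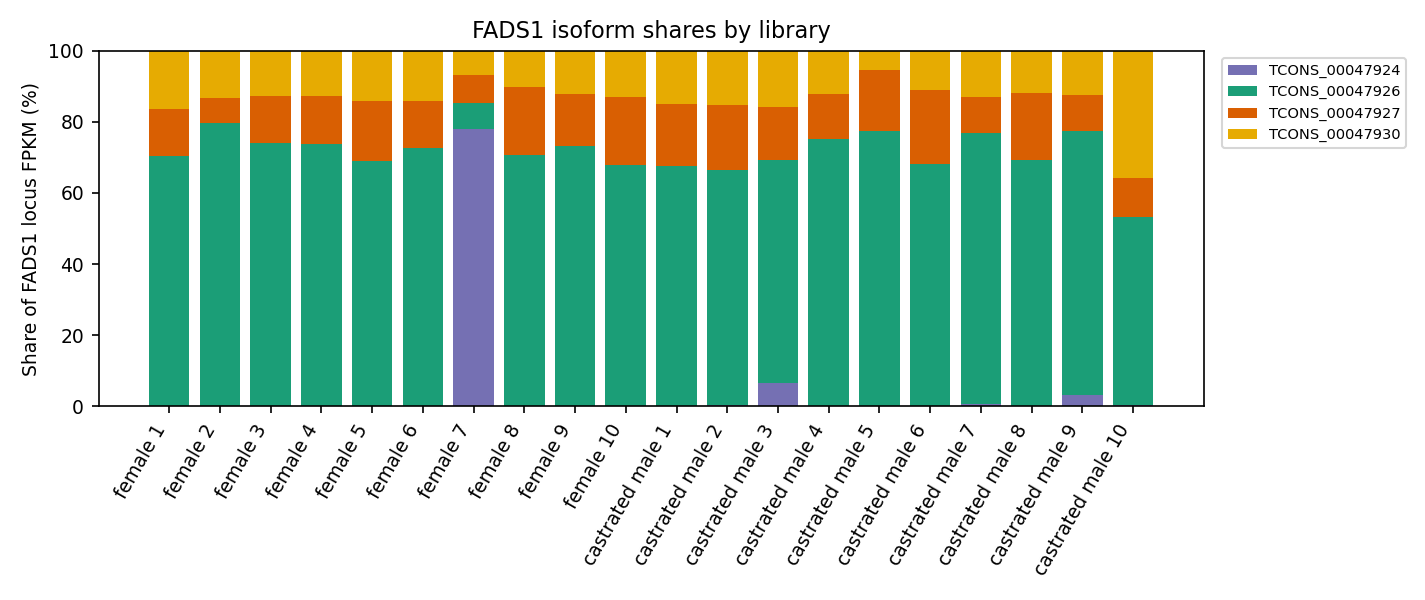
Share of the FADS1 locus FPKM held by each of its 4 isoforms, in percent, in every library, females left and castrated males right. Female 7 stands apart with 77.9% on TCONS_00047924, and the library labelled castrated male 10 has the largest share of TCONS_00047930, 35.9%.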

How the data were processed

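Backfat RNA from 20 pigs was sequenced from oligo-dT selected libraries, per the labels. The authors deposited raw read counts and FPKM for 23483 Cufflinks loci and FPKM for 63418 isoforms. Per the submitters' processing notes the build was Sscrofa10.2 and the tools were Cufflinks 2.1.1, TopHat2 2.0.8, DESeq2 and Bowtie2 2.1.0.0; which tool counted reads, with which strand setting and annotation release, is not given in the sources used here. No sequence was used, and no coordinate beyond the gene order around FADS1 and FADS2 in RefSeq for Sscrofa11.1. Symbols were matched by Ensembl identifier (9360 loci), older symbols through RefSeq for Sscrofa11.1, and isoforms were tied to loci by summed FPKM.

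The members and the gene lists were chosen with earlier results of these data known. The tests on counts were quasi-likelihood fits of edgeR 4.0.16 (R 4.3.3) with TMM scaling, filterByExpr by sex and Benjamini-Hochberg adjustment at 0.05. The sex model held sex alone, and the age model held sex and age. DESeq2 1.42.0 and limma 3.58.1 on log2(FPKM + 0.1) or log2(FPKM + 1) were alternatives. Levels are TMM-scaled CPM; a prior count of 2 was used for log2 CPM. Correlations used log2 CPM with sex means removed and 100000 permutations (scipy 1.17.1), adjusted over 50 relations. Isoform shares were tested for isoforms of 10 to 90% mean share whose locus reached a summed FPKM of 1 in all libraries, with limma on arcsine square root values. Named were the 4 genes, up to 4 genes per list by highest mean CPM, the regulators of the 50 relations, and the 5 named loci of highest r. Loci with several gene symbols were left out of the last. The markers given as examples and the loci closest to SCD without castrated male 1 were chosen after their values were seen. Among 190 pairs of libraries 0 were identical, and each library's counts matched its own FPKM column best in 20 of 20 cases. The scripts were tested on simulated data.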

Additional observations from a re-analysis of the deposited data

Results flagged for a closer look

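Of 56 groups of 10 values examined (levels of the 4 genes as CPM, log2 CPM and FPKM, the ratio of FADS2 to FADS1, and isoform shares, in each sex), 9 held a library far from the other 9. Chance flags about 1 in 20 such groups where values are normally spread, which isoform shares near 0 need not be. SCD in castrated male 1 had a log2 CPM of 7.98, where the next castrated male had 12.93. The other 8 were isoform shares. At FADS1, TCONS_00047924 held 77.9% in female 7 (next female 0.0295%) and TCONS_00047926 7.54% (next 67.9%), TCONS_00047924 held 6.71% in castrated male 3 (next 3.30%), and TCONS_00047930 held 35.9% in the library labelled castrated male 10 (next 15.8%). At SCD the values concerned isoforms under 1% of the locus: TCONS_00028367 at 0.660% and TCONS_00028369 at 0.371% in female 9, and TCONS_00028368 at 0.201% and TCONS_00028369 at 0.352% in castrated male 1. These were the 2 animals with the lowest SCD levels.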

How the results depend on the processing

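Of 467 alternative values, 442 kept their direction and side of the threshold. For the sex difference, 0 loci were called by edgeR, against 5 by DESeq2, 18 without both libraries numbered 10, 12 on log2(FPKM + 0.1), 11 on log2(FPKM + 1) and 0 to 13 when leaving out each library in turn, with 13 without female 10. The sex difference of SCD was -0.033 with age added, and -0.052 (without castrated male 1) to 0.22 (without female 9) on leaving out single libraries, so its sign carries no weight. For age, 0 loci were called by edgeR, against 6 by DESeq2, 1 on either FPKM scale and 0 to 1 on leaving out single libraries. The SD of SCD was 0.859 without castrated male 1. The r of SCD with FADS1 was 0.11 without the 2 libraries farthest on SCD, 0.24 within females and -0.11 to 0.10 on leaving out single libraries; that of SCD with FADS2 was 0.13 within females; that of ELOVL5 with FADS2 was -0.246 to 0.0088 on leaving out single libraries. FADS1 with FADS2 within castrated males, r = 0.74, did not pass the adjustment (0.262), with fewer animals. The share difference of FADS1 TCONS_00047930 was 0.0026 without both libraries numbered 10, and that of TCONS_00047926 was 0.036 without female 7. Leaving out single libraries in the correlations, female 7 in the isoform shares, and the libraries numbered 10 in the gene lists, were chosen after seeing the data. Other causes were not tested. No paired analysis was possible because the replicate numbers follow the order of deposition and pair no animals. The smallest count was 307 per gene and library, and the number of animals limits the precision.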
